A study of Mus musculus with 6 samples.

Results

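Collagen chain genes were taken as every row of the gene count table whose symbol is Col, a type number, the letter a and a chain number, which gave 44 genes of 24421. They were followed in 6 RNA-sequencing libraries of 4T1-tetL1(GLucAI) cells, a line derived from the 4T1 mouse breast carcinoma of BALB/cfC3H background. All 6 libraries carry the same stably integrated cassette. In it a doxycycline-responsive promoter drives a LINE-1 (L1) retrotransposon with a Gaussia luciferase readout and, in the other direction, firefly luciferase. The line is a selected population rather than a single clone. The 3 untreated libraries, which the treatment tag calls vehicle, came from cells without the inducer, and the 3 doxycycline libraries came from cells held in 400 ng/mL doxycycline for 48 h. The comparison asks how L1 induction changes transcription. With these groups L1 induction cannot be told apart from exposure to doxycycline itself or from the firefly luciferase induced alongside. The cassette transcript was not analysed here, so group membership rests on the labels.

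Collagens are extracellular proteins in which 3 chains, made from 1 or several genes, wind into a triple helix. Fibrillar collagens (types I, II, III, V, XI, XXIV and XXVII) pack into the fibrils of connective tissue, and types I and III are made mainly by fibroblasts. Type IV chains form the sheet-like network of basement membranes, on which epithelium rests. Transmembrane collagens (types XIII, XVII, XXIII and XXV) span the plasma membrane and can be shed from it, and the remaining chains make anchoring fibrils, beaded filaments, hexagonal networks, multiplexins or fibril-associated (FACIT) collagens. In a breast carcinoma the tumor cells and the surrounding fibroblasts both contribute collagen, whereas the cells here were grown without a stroma.

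Library totals ran from 31653464 to 43631312 counts, so that 3 counts, the most that a count of 0 allows, corresponded to between 0.0683 and 0.0944 CPM (a gene's counts in every 1000000 of the scaled library total), counting error only. Of 12 markers of mammary carcinoma epithelium, 11 averaged at least 1 CPM, and Krt5 had no count. Their summed level ran from 1901 to 1984 CPM in untreated libraries and from 1844 to 2085 CPM in doxycycline libraries. Of 8 fibroblast markers only Pdgfra, a growth factor receptor, exceeded 1 CPM. The other 7 summed to between 0.588 and 0.929 CPM in untreated and between 0.418 and 0.849 CPM in doxycycline libraries, with Lum and Thy1 at 0 in every library. None of 5 endothelial markers reached 1 CPM, and of 6 leukocyte markers only Cd68 did. In these bulk samples fewer cells of a type and less RNA per cell cannot be told apart.

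The 4T1 cells expressed a narrow set of collagens, dominated by type IV and type VIII chains. Of the 44 chains, 15 averaged at least 1 CPM over the 6 libraries and 29 lay under it. No read was counted in any library for 4 chains: Col3a1, the chain of type III collagen, and Col6a6, Col9a1 and Col19a1. To compare genes, CPM was divided by the length of the longest annotated transcript in kb. On this scale Col8a1, which forms hexagonal networks, averaged 90.1 CPM per kb and Col4a1 averaged 84.0, and these highest chains overlapped in their library values. Col4a2 followed with 54.0 and Col18a1, the source of endostatin, with 23.2 CPM per kb. Col7a1 at 16.1, Col5a1 at 15.5 and Col16a1 at 13.9 CPM per kb formed the next tier, with Col7a1 and Col5a1 overlapping. Col4a5 at 3.64, Col6a1 at 3.45 and Col12a1 at 2.09 CPM per kb came below them, each overlapping its neighbour in this order. The 5 remaining chains above 1 CPM, Col10a1, Col17a1, Col23a1, Col14a1 and Col4a4, lay between 0.131 and 0.649 CPM per kb, again with neighbours overlapping.

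**Figure D1:**
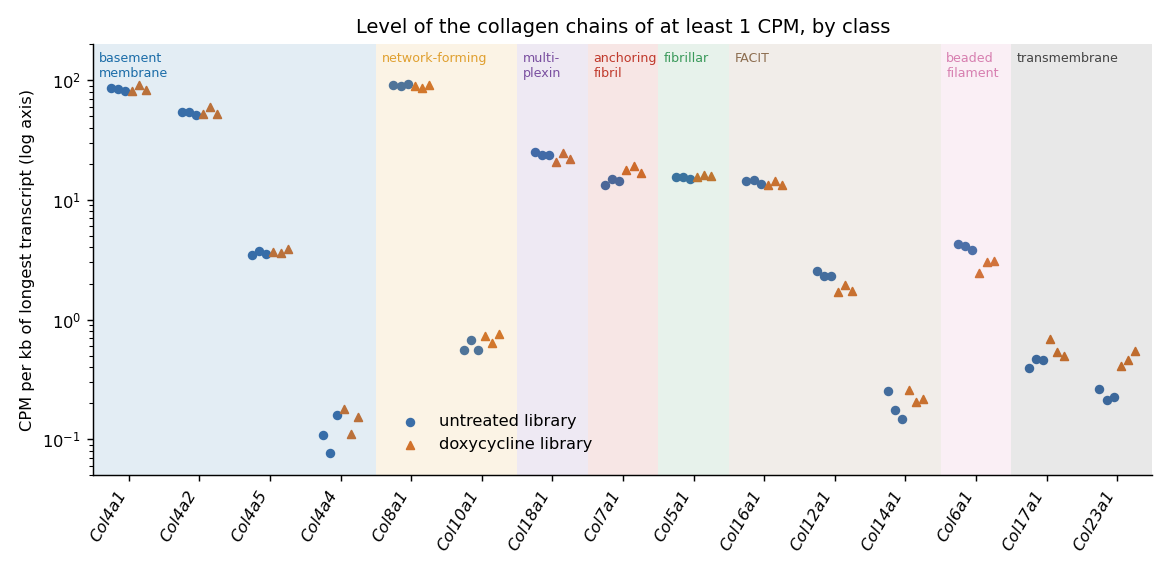
Level of the 15 collagen chains that averaged at least 1 CPM, in CPM per kb of longest transcript on a log axis. Each point is 1 library, circles for untreated and triangles for doxycycline, and shading marks the class. Col4a1 and Col8a1 lie near the top at averages of 84.0 and 90.1, whereas both transmembrane chains lie under 1.

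The classes differed widely in level. Basement membrane chains summed to 140.3 ± 4.14 CPM per kb (SD, n = 3) in untreated libraries, fibrillar chains to 15.6 ± 0.298 and transmembrane chains to 0.682 ± 0.00979. As shares of all collagen CPM per kb, basement membrane chains made up 45.5% ± 0.760 in untreated and 46.3% ± 1.40 in doxycycline libraries. Fibrillar chains made up 5.05% ± 0.0339 and 5.27% ± 0.0893, and transmembrane chains 0.221% ± 0.0059 and 0.341% ± 0.0261. The sum over all collagen chains was 308.6 ± 4.01 CPM per kb in untreated and 309.5 ± 11.3 in doxycycline libraries, a difference smaller than the spread between libraries.

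**Figure D2:**
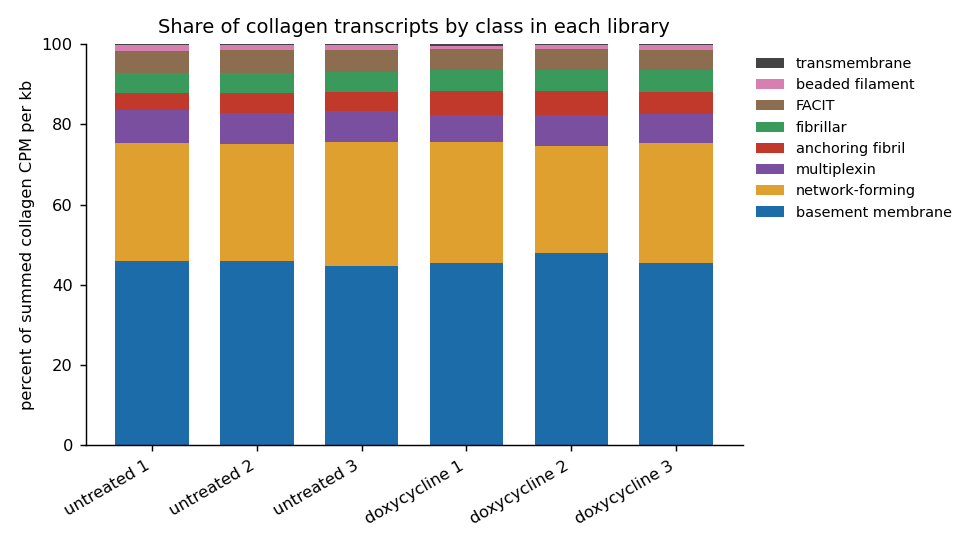
Share of each collagen class in the summed collagen CPM per kb, in percent, with 1 stacked bar for each of the 6 libraries. Basement membrane chains hold 44.6% to 47.9% in every library and network-forming chains 26.8% to 30.9%, and the transmembrane share is at most 0.365%.

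Of the 44 chains, 27 had enough counts to be tested for a difference between groups, with the quasi-likelihood test of edgeR fitted across all 13084 genes that passed the filter on low counts and a Benjamini-Hochberg adjusted p under 0.05. The tested 27 are those above the filter and not the whole family. Col7a1 and Col23a1 were higher in doxycycline libraries, and Col6a1 and Col12a1 were lower. These 4 chains are 14.8% of the 27, where 3.09% of all tested genes passed. In each direction 2 chains passed, against 0.925% of tested genes that were higher and 2.16% that were lower. Before adjustment 8 of the 27 chains had p under 0.05, against 16.2% of all tested genes. Untreated and doxycycline values did not overlap for 9 of the 27, against 21.3% of all tested genes. The median log2 fold change (doxycycline against untreated) was 0.05 over the 27 chains, which ranged from -1.15 to 1.11, and close to 0 over all tested genes. The ends of this range, Col6a2 and Col9a3, had under 10 counts in some libraries. A filter of at least 10 counts in every library kept 17 chains and dropped both. Across all genes 121 were higher and 283 lower, and adjusting libraries for the GC content and length of transcripts turned this split into 420 higher and 429 lower, with the same 4 chains past the threshold.

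**Figure D3:**
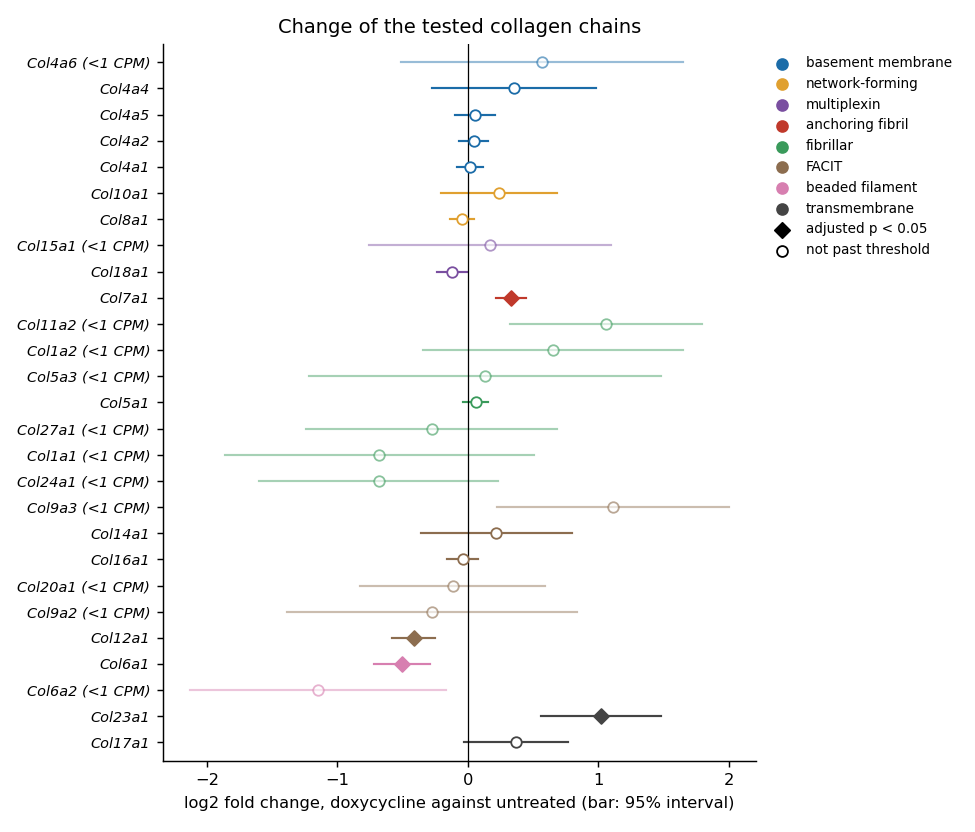
Log2 fold change of the 27 tested collagen chains, doxycycline against untreated, grouped by class, with 95% intervals. Filled diamonds mark the 4 chains past an adjusted p of 0.05, open circles the others, and paler symbols chains under 1 CPM, whose intervals are wide.

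None of the basement membrane chains passed the test, and the main ones were nearly level between groups. Type IV collagen is made as 3 heterotrimers, of which the one from Col4a1 and Col4a2 occurs in nearly all basement membranes, while those from Col4a3 to Col4a6 are restricted to certain tissues. Col4a1 stood at 566, 554.5 and 536 CPM in the untreated and at 534, 599 and 545 CPM in the doxycycline libraries. The groups overlapped, and the log2 fold change was 0.02 (SE 0.0481, 95% interval -0.08 to 0.12, edgeR adjusted p = 0.895). Col4a2 read 349, 350.5 and 328 CPM without and 336, 386.5 and 338 CPM with doxycycline. Its groups overlapped too, and the log2 fold difference was 0.05 (SE 0.0527, 95% interval -0.06 to 0.16, edgeR adjusted p = 0.732). The second doxycycline library was the highest of the 6 for both chains, and without it both log2 fold changes turned slightly negative, to -0.03 for Col4a1 and -0.02 for Col4a2. Without the third untreated library that of Col4a1 was also just below 0.

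The ratio of Col4a2 to Col4a1 per kb held between 0.628 and 0.661 in all 6 libraries. It averaged 0.636 ± 0.0105 (SD, n = 3) in untreated and 0.648 ± 0.0125 in doxycycline libraries. Both genes lie head to head on chromosome 8 (GRCm38), Col4a1 at chr8:11198423-11312826 on the minus strand and Col4a2 at chr8:11312805-11449287 on the plus strand. Their annotated ends overlap by 22 bases, and without a known strand setting of the counting, reads from that overlap cannot be assigned to either gene. Col4a5 read 22.8 to 25.2 CPM over the 6 libraries, with a log2 fold change of 0.05, and stood at 0.0396 to 0.0468 of Col4a1 per kb. Col4a4 averaged 1.16 ± 0.415 CPM without and 1.5 ± 0.351 CPM with doxycycline, and its log2 fold change of 0.35 had an interval from -0.28 to 0.98. Col4a6 and Col4a3 stayed under 1 CPM, Col4a6 with 5 to 22 counts a library and Col4a3, which was not tested, with 6 to 23. All 5 tested members had a log2 fold change above 0, the median being 0.05. Before adjustment 0 of the 5 had p under 0.05, and DESeq2 and limma also called 0.

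Among fibrillar collagens the cells expressed essentially Col5a1 alone. Col5a1 encodes a chain of type V collagen, which joins type I fibrils and limits their diameter. It read 129, 129 and 125 CPM in the untreated and 130.2, 135 and 134 CPM in the doxycycline libraries. The groups did not overlap but lay close together, and the log2 fold change of 0.06 (SE 0.0458, 95% interval -0.04 to 0.16) did not pass the test (edgeR adjusted p = 0.557). Col5a2, whose chain joins that of Col5a1 in the common type V heterotrimer, had 2 counts in the third doxycycline library and 0 in the other 5. The ratio of Col5a2 to Col5a1 per kb was therefore at most 0.000494. Exons of Col5a1 overlap those of 2810430I11Rik and Gm13372 on the opposite strand.

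The chains of type I collagen, the main protein of connective tissue, were barely detected. Col1a1 had 18, 16 and 12 counts in the untreated and 2, 6 and 20 in the doxycycline libraries, all under 1 CPM. Col1a2 had 29, 7 and 8 counts without and 16, 34 and 16 with doxycycline. Both overlapped between groups, and their fitted log2 fold changes of -0.68 and 0.65 came with edgeR adjusted p-values of 0.608 and 0.540. Per kb, Col1a1 stood at 0.000131 to 0.00107 of Col4a1, while Col5a1 stood at 0.178 to 0.194 of it. Col3a1 had no count in any library. Of the other fibrillar chains, Col2a1 and Col11a1 had 2 counts in a single library each. Col5a3, Col24a1 and Col27a1 had 2 to 24 counts a library, and none of them passed the test. Col24a1 was lower in every doxycycline library than in any untreated one (log2 fold change -0.68, edgeR adjusted p = 0.473).

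Col11a2, a chain of the cartilage collagen type XI, was the low fibrillar member with the largest separation. It had 17, 18 and 19 counts in the untreated and 27, 50 and 34 in the doxycycline libraries, or 0.478 ± 0.0803 and 0.987 ± 0.206 CPM (SD, n = 3). The groups did not overlap, yet the log2 fold change of 1.06 (SE 0.353) had an edgeR adjusted p of 0.118 after an unadjusted 0.00683. It was the only fibrillar chain with an unadjusted p under 0.05. Over the 7 tested fibrillar chains 4 had a log2 fold change above 0 and 3 below, with a median of 0.06, and none was called by edgeR, DESeq2 or limma. This median rests on chains with few counts and moved to -0.28 without the second untreated library and to -0.39 without the second doxycycline library.

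Both expressed transmembrane chains were higher in all 3 doxycycline libraries than in any untreated one, but only Col23a1 passed the test. Across all tested genes the groups did not overlap, in either direction, for 21.3%. Col23a1, the chain of type XXIII collagen, a homotrimer of epithelial cell surfaces, rose 2.03-fold. Its level was 1.48, 1.2 and 1.28 CPM in the untreated and 2.33, 2.62 and 3.11 CPM in the doxycycline libraries, from 40 to 65 and from 74 to 119 counts. The log2 fold change was 1.02 (SE 0.221, 95% interval 0.56 to 1.48, edgeR adjusted p = 0.011). The call was lost in 3 of the 6 fits that left out 1 library: without untreated replicate 2, untreated replicate 3 or doxycycline replicate 3 the adjusted p rose to 0.0636, 0.0647 and 0.0934, with log2 fold changes of 0.96, 0.995 and 0.90. Col17a1, the hemidesmosome protein BP180 that fastens basal epithelial cells to the basement membrane, read 2.21, 2.64 and 2.59 CPM without and 3.84, 3.01 and 2.79 CPM with doxycycline. Its groups did not overlap, but the smallest gap was narrow, and the log2 fold change of 0.37 (SE 0.192, 95% interval -0.03 to 0.77) missed the threshold (edgeR adjusted p = 0.346). Col13a1 had 1 count in 1 library and Col25a1 had 2 counts in each of 2 libraries, so the class rests on Col17a1 and Col23a1.

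The summed transmembrane level was 3.76, 3.84 and 3.87 CPM in the untreated and 6.16, 5.68 and 5.90 CPM in the doxycycline libraries. These sums did not overlap between groups, and no test was run on them. Their SD of 0.0587 CPM in untreated libraries was smaller than that of Col17a1 (0.235) or Col23a1 (0.145) alone. The gap is therefore not measured against it. By contrast, the basement membrane sum of 919.8 ± 26.9 CPM in untreated and 939.4 ± 62.6 CPM in doxycycline libraries differed by less than its spread. The fibrillar sum, which is nearly all Col5a1, was 130.3 ± 2.44 and 136 ± 3.55 CPM. The median log2 fold change was 0.70 over the 2 tested transmembrane chains, 0.06 over the 7 fibrillar and 0.05 over the 5 basement membrane chains, and whether these medians differ between classes was not tested. In absolute terms the transmembrane chains remained the lowest of the 3 classes in every library.

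Col7a1, the only chain of type VII collagen, whose anchoring fibrils tie the epithelial basement membrane to the tissue beneath, rose 1.26-fold. It read 123, 138 and 133 CPM in the untreated and 163.5, 178 and 156 CPM in the doxycycline libraries. The groups were clearly apart, and Col7a1 had a log2 fold change of 0.33 (SE 0.0546, 95% interval 0.22 to 0.45, edgeR adjusted p = 0.000824). Its share of all collagen CPM per kb went from 4.61% ± 0.294 to 5.79% ± 0.238 (SD, n = 3). Col7a1 lies on chromosome 9 at chr9:108953586-108984875 (plus strand) and contains the microRNA gene Mir711 within its exons on the same strand.

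**Figure D4:**
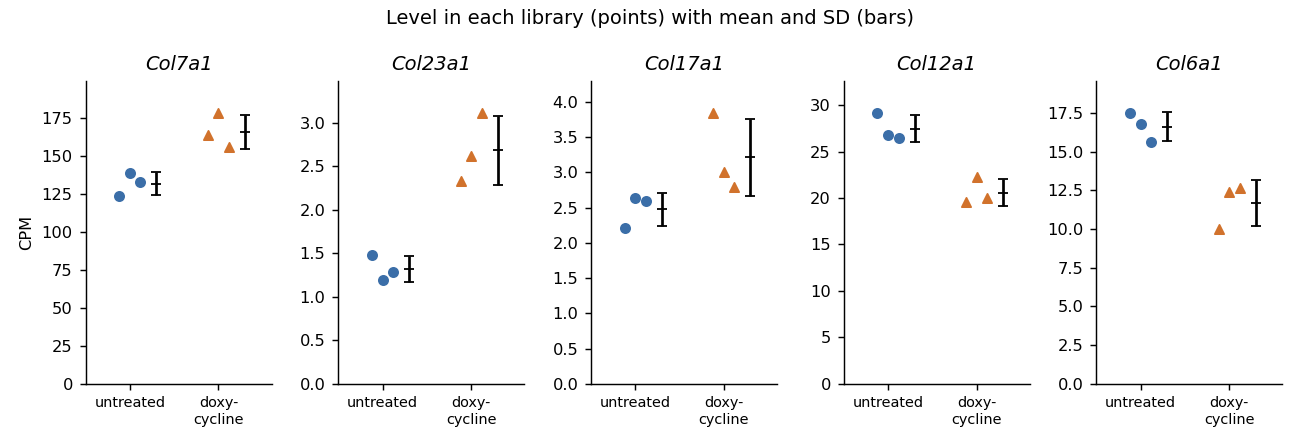
Level in CPM of 5 collagen chains in each library, with axes starting at 0. Points are libraries, and bars give the mean and SD of the 3 libraries of a group. Col7a1, Col23a1 and Col17a1 are higher in each doxycycline library than in any untreated one, Col12a1 and Col6a1 lower, and Col17a1 alone of these did not pass the test.

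For both chains that rose, the 250 bases upstream of the annotated start are shown, since that is where promoter elements common to many genes can be looked up. The sequences are from RefSeq (GRCm38.p6), in which 35 of the 44 chains had an entry. Col7a1 is at chr9:108953336-108953585 and Col23a1 at chr11:51289670-51289919, both on the plus strand, and each window ends before the annotated start of its own gene. Capitals mark a GC box (GGGCGG or CCGCCC) or a CCAAT box (CCAAT or ATTGG), each searched on both strands together with the TATA box (TATAAA or TTTATA).
Col7a1: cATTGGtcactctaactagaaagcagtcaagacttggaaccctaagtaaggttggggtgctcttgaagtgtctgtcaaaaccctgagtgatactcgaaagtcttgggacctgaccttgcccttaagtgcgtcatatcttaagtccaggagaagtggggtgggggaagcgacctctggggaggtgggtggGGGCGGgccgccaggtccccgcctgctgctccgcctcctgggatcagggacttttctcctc
Col23a1: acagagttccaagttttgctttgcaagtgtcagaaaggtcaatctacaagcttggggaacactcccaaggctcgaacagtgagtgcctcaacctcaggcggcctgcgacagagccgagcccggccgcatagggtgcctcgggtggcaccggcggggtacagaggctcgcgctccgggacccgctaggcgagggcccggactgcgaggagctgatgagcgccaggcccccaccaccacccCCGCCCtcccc
The Col7a1 window held 1 GC box and 1 CCAAT box and the Col23a1 window 1 GC box, and neither contained the letters of a TATA box. Of 32851 promoter windows of this length, 32.7% held a GC box, 33.8% a CCAAT box and 12.4% a TATA box, so these matches are common.

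The chains that fell were Col6a1, of the beaded filament class, and Col12a1, of the FACIT class. Col6a1 encodes the first chain of type VI collagen, which forms beaded filaments near cells. Its level was 17.5, 16.8 and 15.6 CPM in the untreated and 9.97, 12.4 and 12.7 CPM in the doxycycline libraries. Every doxycycline library lay below every untreated one, and the log2 fold difference was -0.51 (SE 0.102, 95% interval -0.72 to -0.29, edgeR adjusted p = 0.00637). Without untreated replicate 1 the value was -0.47 and the adjusted p 0.0591. Col6a1 is at chr10:76708792-76726168 on the minus strand, and its neighbour Col6a2 starts 102538 bases away on the same strand.

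A type VI molecule is built from Col6a1, Col6a2 and another chain, mostly Col6a3, but these partners were nearly silent here. Col6a2 had 27, 30 and 14 counts without and 7, 8 and 16 with doxycycline, which overlapped, and its log2 fold change of -1.15 (SE 0.471) had an edgeR adjusted p of 0.219. Per kb, Col6a2 stood at 0.0132 to 0.0447 of Col6a1 and Col6a3 at no more than 0.00512 of it. Col6a3, Col6a4 and Col6a5 had at most 10 counts in any library. Both tested members of the class, Col6a1 and Col6a2, were below 0. The filter kept Col6a2 mainly through its higher untreated counts, so its direction is not separate evidence. With at least 10 counts required in every library only Col6a1 was fitted.

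Col12a1 encodes the FACIT collagen type XII, which sits on fibril surfaces. It read 29.1, 26.8 and 26.5 CPM in the untreated and 19.6, 22.2 and 20.0 CPM in the doxycycline libraries. The groups did not overlap, and the log2 fold change was -0.42 (SE 0.0787, 95% interval -0.58 to -0.25, edgeR adjusted p = 0.0035), a fold of 0.75. It lies at chr9:79598991-79718831 on the minus strand. Neither Col12a1 nor Col6a1 shares annotated exon bases with another gene. The one fibroblast marker above 1 CPM, Pdgfra, moved with them. It read 35.2 to 37.6 CPM in untreated and 27.3 to 28.6 CPM in doxycycline libraries (log2 fold change -0.40, edgeR adjusted p = 0.000952). The epithelial Krt19 was lower too (log2 fold change -0.31, edgeR adjusted p = 0.00783). It was the only marker called among 11 tested epithelial ones, of which 7 had a log2 fold change above 0 and 4 below. That is 9.09% called, where 3.09% of all tested genes were. The other 7 fibroblast markers stayed under 1 CPM in both groups, and the part of any of these in the collagen values was not tested.

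The other FACIT chains did not pass the test. Col16a1, found near basement membranes and thin fibrils, was the highest of them at 73.6 ± 2.89 CPM in untreated and 71.6 ± 3.28 CPM in doxycycline libraries, with a log2 fold change of -0.04 (95% interval -0.16 to 0.08). Col14a1, which associates with type I fibrils, averaged 1.25 ± 0.352 and 1.47 ± 0.179 CPM. Col9a3, a chain of the cartilage collagen type IX, had 9, 9 and 21 counts without and 21, 32 and 30 with doxycycline. Its log2 fold change of 1.11 (SE 0.427) had an unadjusted p of 0.0163 and an edgeR adjusted p of 0.185. Col9a2 and Col20a1 had 6 to 40 counts a library and were not called, and Col22a1 had 2 counts in 1 library.

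Network-forming and multiplexin collagens, though abundant, did not pass the test either. Col8a1, a short-chain collagen of blood vessels and the cornea, read 465, 459 and 477 CPM in the untreated and 457, 438 and 463.5 CPM in the doxycycline libraries. The log2 fold change of -0.05 had a 95% interval from -0.14 to 0.04, which leaves out changes of the size seen for Col7a1 or Col12a1. Its partner Col8a2 stood at no more than 0.00066 of it per kb. Col10a1, the collagen of hypertrophic cartilage, averaged 1.87 ± 0.228 and 2.2 ± 0.192 CPM with a log2 fold change of 0.24 (95% interval -0.20 to 0.68), and its exons overlap Nt5dc1 on the opposite strand.

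Col18a1, the multiplexin of basement membranes, read 139.8, 133.5 and 133 CPM in the untreated and 115, 136 and 122 CPM in the doxycycline libraries. The second doxycycline library fell among the untreated ones, and the log2 fold change of -0.12 (SE 0.0557) had an unadjusted p of 0.042 and an edgeR adjusted p of 0.284. Without that library the value was -0.19 with an adjusted p of 0.0033. Col15a1, the second multiplexin, had 7 to 27 counts a library and a log2 fold change of 0.17. Col26a1 and Col28a1, which belong to none of these classes, had at most 3 counts in any library and were not tested.

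A list of 53 genes that build, export, cross-link, bind or degrade collagen was read beside the chains. Of these, 42 were tested, and 6 fell and 0 rose, which is 14.3% of those tested, where 2.16% of all tested genes were lower and 0.925% higher. The median log2 fold change was -0.08, with 29 genes below 0 and 13 above. Before adjustment 14 of the 42 had p under 0.05, against 16.2% of all tested genes, and DESeq2 and limma called 0 of the list higher as well. Winding of the triple helix depends on hydroxylation in the endoplasmic reticulum, and 3 of 16 tested chaperones and hydroxylases fell, to be read against the same 2.16% of genes that were lower.

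P4ha1, the catalytic subunit of the prolyl hydroxylase that stabilizes the triple helix, read 90.1, 85.7 and 93.2 CPM in the untreated and 71.4, 72.6 and 65.2 CPM in the doxycycline libraries, well apart, and the log2 fold difference was -0.36 (SE 0.0564, edgeR adjusted p = 0.000525). Plod2 and Plod1, lysyl hydroxylases that prepare cross-link sites, fell from 93.3 ± 3.60 to 73.4 ± 3.81 CPM and from 24.1 ± 0.707 to 19.1 ± 0.835 CPM (SD, n = 3). Their log2 fold changes were -0.35 and -0.33, with edgeR adjusted p-values of 0.000636 and 0.0182. The call of Plod1 was lost without any 1 of the 3 untreated libraries, at adjusted p-values of 0.0642 to 0.104. More abundant genes of this role were P4hb, the other prolyl hydroxylase subunit, at 565 ± 14.1 and 524.5 ± 9.18 CPM, and Serpinh1, the collagen chaperone HSP47, at 294 ± 1.14 and 274.5 ± 7.74 CPM. Neither passed the threshold (edgeR adjusted p = 0.205 and 0.245).

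Pcolce, which enhances the cleavage of fibrillar propeptides, was the 1 of 5 tested propeptide-cleavage genes to pass, at 184 ± 9.30 CPM in untreated and 153 ± 7.81 CPM in doxycycline libraries (log2 fold change -0.27, edgeR adjusted p = 0.003). Among 6 tested cross-linking genes Tgm2, a transglutaminase, fell from 72.0 ± 2.93 to 59.5 ± 7.66 CPM (log2 fold change -0.28, edgeR adjusted p = 0.039). Both counts are to be read against the 2.16% of all tested genes that were lower. The Tgm2 call was the least stable, since it was lost in 5 of the 6 fits that left out 1 library and held only without doxycycline replicate 2. Loxl4, a lysyl oxidase, stood at 381 ± 7.74 and 396 ± 16.4 CPM with no call.

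Mmp13, a collagenase that cleaves fibrillar collagens, showed the largest fall of the list. Its level was 50.2, 46.4 and 48.8 CPM in the untreated and 30.5, 27.8 and 28.0 CPM in the doxycycline libraries. All 3 doxycycline libraries lay below all 3 untreated ones, and the log2 fold change was -0.76 (SE 0.0657, 95% interval -0.89 to -0.62, edgeR adjusted p = 4.74e-07). It was the 1 of 5 tested turnover genes to pass. Of 7 tested receptors 0 passed in edgeR, with 2 at an unadjusted p under 0.05, and limma also called 0. Across all tested genes 3.09% passed in edgeR and 16.2% had an unadjusted p under 0.05. Itga1, the alpha chain of a collagen IV-binding integrin, had a log2 fold change of -0.33 (edgeR adjusted p = 0.0588) and lay close to the threshold. It was called lower in 4 of 15 alternatives, by DESeq2 (adjusted p = 0.0455) and by edgeR with library size only (0.0454), with no filter (0.0293) and without doxycycline replicate 2 (0.0101). Itga2, the alpha chain of a fibrillar collagen-binding integrin, had a log2 fold change of 0.17 (edgeR adjusted p = 0.084) and was called higher in 1 of 15 alternatives, with the adjustment for GC content and length (edgeR adjusted p = 0.00427). Itgb1, their shared beta chain, stood at 1208 ± 11.9 and 1206 ± 34.5 CPM. Of 3 tested export genes 0 passed in edgeR, DESeq2 or limma, with 1 at an unadjusted p under 0.05.

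**Figure D5:**
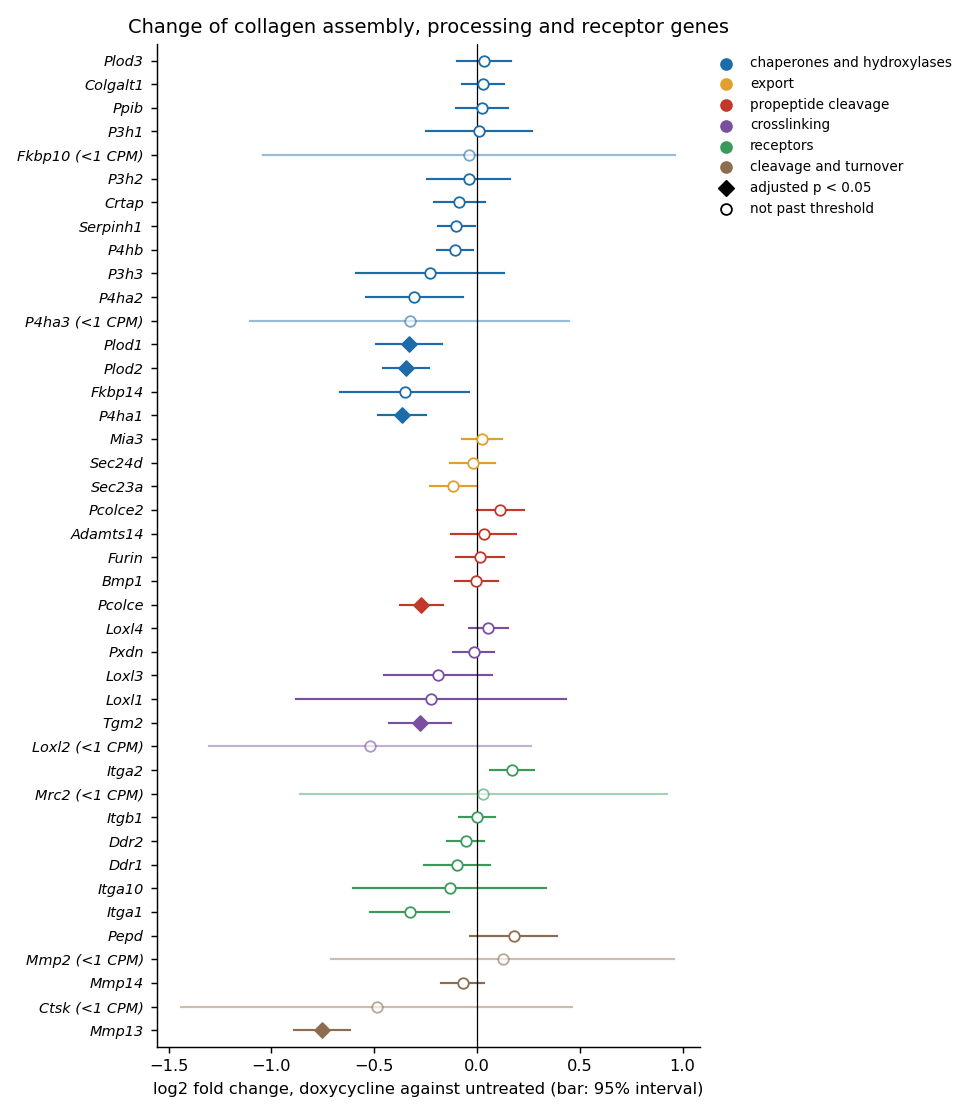
Log2 fold change of the 42 tested genes of collagen assembly, export, processing, cross-linking, binding and turnover, doxycycline against untreated, grouped by role, with 95% intervals. The 6 filled diamonds, all on the negative side, passed an adjusted p of 0.05, and Mmp13 lies farthest out at -0.76.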

How the data were processed

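Ribosomal RNA was removed from the total RNA of 6 cultures and libraries were made with a kit that marks the strand. The authors demultiplexed with bcl2fastq 2.20, aligned to mouse mm10/GRCm38 with STAR and counted reads per gene with featureCounts (Subread 1.6.2). The deposited values are raw counts, with replicates apart. Whether the counting used strand, and what was done with multi-mapping reads, is not given in the sources used here.

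Groups came from sample titles, with columns matched by library code and 0 unmatched. The study describes the libraries as biological triplicates of this line, and p-values measure the spread between these samples. Replicate pairs differed by more than sampling noise (chi-square per degree of freedom 6.14 to 22.06). The highest values were 22.06 and 14.5, for the pairs with doxycycline replicate 2. Doxycycline replicates 1 and 3 gave 6.85, and the highest untreated pair 13.08. Rn45s, a ribosomal RNA gene, took 8.83% to 12.1% of counts, the most in doxycycline replicate 2.

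Differences were tested with edgeR 4.0.16 in R 4.3.3 (robust quasi-likelihood test, two-sided, TMM scaling, filterByExpr, group as the only term) with Benjamini-Hochberg adjustment over 13084 genes. The study used DESeq2. The SE is the absolute log2 fold change over the square root of F. CPM used TMM-scaled totals. Lengths, coordinates and overlaps are from GENCODE M21 (GRCm38).

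The members, classes and gene lists were chosen with earlier results of these data known. Members past the threshold and a fixed set of main chains are given per library, others of at least 1 CPM by level and fold change, and the rest by counts. Col11a2 and Col9a3 were singled out after their values were seen.

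As alternatives, libraries were scaled by DESeq2 size factors, upper quartiles or totals alone, the filter was dropped or set to 10 counts in all libraries, replicate numbers were entered as a block, DESeq2 1.42.0 or limma 3.58.1 voom replaced edgeR, a loess fit (span 0.5) removed trends with GC content and length (known for 99.2% of tested genes), and each library was left out in turn. On simulated counts of 12964 genes the test found 92.9% of changes of 1 log2 unit and 85% of changes of 0.5. Of its calls, 6.8% were unchanged genes. The changed genes were drawn from all tested genes averaging at least 10 counts, with the spread taken from its trend with level. These shares are therefore not those of the collagen chains under 1 CPM.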

Additional observations from a re-analysis of the deposited data

How the results depend on the processing

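Each count was recomputed under 15 alternatives. Col7a1 and Col12a1 passed the threshold in all 15 (log2 fold change 0.28 to 0.38 and -0.48 to -0.37), Col6a1 in 14 and Col23a1 in 12. Collagen chains called higher ranged from 1 to 2 and chains called lower from 1 to 3 when a library was left out. They were 1 higher without untreated replicate 2, untreated replicate 3 or doxycycline replicate 3, and 1 lower without untreated replicate 1. Without doxycycline replicate 2 there were 3 lower, Col18a1 being added. No basement membrane or fibrillar chain passed under any alternative.

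Over all genes, 121 higher and 283 lower became 210 and 439 with no filter and 420 and 429 with the correction for GC content and length. Leaving out a library gave 44 to 269 higher and 116 to 487 lower: 58 and 141, 70 and 151, 44 and 116 without untreated replicates 1, 2 and 3, then 207 and 356, 269 and 487, 66 and 149 without doxycycline replicates 1, 2 and 3. The cause of these shifts was not tested. Of the assembly, processing and receptor list, 1 gene (Itga2) was called higher with the GC correction, and 4 to 9 were called lower when a library was left out, being 9 without doxycycline replicate 2 and 4 without any untreated one.

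The median of fibrillar chains was 0.56 with at least 10 counts in every library, which fitted fewer chains, and -0.39 to 0.076 when a library was left out. The log2 fold change of Col4a1 was -0.0031 without untreated replicate 3 and -0.0343 without doxycycline replicate 2, in a leave-one-out range up to 0.0509, and that of Col4a2 was -0.0238 without doxycycline replicate 2, in a range up to 0.0805. With the union of exons as length, basement membrane chains summed to 129.4 in place of 140.3 CPM per kb and transmembrane chains to 0.645 in place of 0.682, and 11 of 15 chains kept their rank.

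Same-numbered replicates did not deviate together (correlations -0.04, -0.004 and 0.018), which gave no sign that the numbers pair the samples. With 3 libraries a group a weak shared effect could go unseen. With the number as a replicate block 118 genes were higher and 300 lower, and the collagen calls were again 2 and 2. For chains under 1 CPM the depth limits what can be seen. An interval such as that of Col1a1, from -1.87 to 0.51 on the log2 scale, allows a large fall, no change or a smaller rise. DESeq2 gave no adjusted p for Col14a1 and Col4a4.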
